A study of Mus musculus with 9 samples.

Results

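B16F10 cells, a pigmented mouse melanoma line, with a knockdown of Sirpa were compared with B16F10 cells carrying a non-targeting control. The comparison used every library whose title marks it as knockdown or control, 6 of the 9 libraries of the series, with 3 of each line. The other 3 libraries, of a line overexpressing Sirpa, were not part of the contrast. They entered the choice of genes and transcripts to test, the scaling of libraries, the shared estimate of the spread and some values set side by side. All lines were grown in the same complete DMEM. The labels call the 3 libraries of each line biological repeats and do not say by what agent the knockdown was made, or whether a line is 1 clone or a pool. Each condition is therefore 1 line, and a difference between the lines cannot be told apart from a difference between cells that founded them. The p-values measure the spread between libraries of a line.

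Sirpa encodes signal regulatory protein alpha, a membrane receptor best studied on macrophages and neurons. Its ligand CD47 sits on most cells, and phosphorylated tyrosines in its cytoplasmic tail recruit the phosphatases SHP-1 and SHP-2, which damp or redirect signalling from growth factor receptors, integrins and Src family kinases. In macrophages this pathway restrains phagocytosis.

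The libraries held 16.4M to 22.38M estimated counts, with M for 1000000. Melanocyte markers marked the cells as labelled: the summed level of 10 markers was 17850 to 18040 CPM (counts per 1000000 with TMM library sizes) in control and 17250 to 17890 CPM in knockdown, with none at 0. Of 20 macrophage and myeloid markers 10 had no count in any of the 6 libraries, and their sum was 2.49 to 3.75 CPM in control and 4.23 to 5.05 CPM in knockdown. For T and NK cell markers 13 of 17 had no count, and for epithelial markers 9 of 12. Endothelial markers summed to 266.9 to 284.4 CPM in control and 351.5 to 387.4 CPM in knockdown, nearly all of it Eng. Fibroblast markers summed to 87.7 to 97.1 CPM in control and 60.7 to 69.8 CPM in knockdown, with Col1a1 the main part in control. The part of other cell types in the results below was not tested, and in bulk RNA fewer cells of a type and less RNA per cell cannot be told apart.

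Sirpa itself stood at 292, 289 and 303 CPM in the control libraries and at 118, 112 and 115 CPM in the knockdown libraries. The groups were far apart, and much of the control level remained. Sirpa fell by 1.36 on the log2 scale (SE 0.04, adjusted p = 4.57e-13, quasi-likelihood F test of edgeR, Benjamini-Hochberg adjusted over all genes tested, as for every gene below). With each library's average transcript length as an offset in the same test, its log2 fold change was -1.13 (SE 0.09, adjusted p = 1.4e-05). The annotated transcripts of Sirpa did not fall alike. Sirpa-201 had a TPM (transcripts per 1000000) of 22.3, 20.5 and 21.1 in control and Sirpa-203 of 27.7, 16.0 and 24.1, and both were estimated at 0 in all 3 knockdown libraries. Sirpa-202 is an annotated form that lacks a pair of coding exons of 318 and 336 bases. It was listed at 0, 0 and 5.62 TPM in control and at 16.2, 21.6 and 18.8 TPM in knockdown. Of the annotated transcripts that span each exon, 5 lack the 318-base exon and 4 lack the 336-base exon. The exon percentages that follow count all of these and not Sirpa-202 alone. Transcripts with the 318-base exon made up 79.7%, 78.4% and 78.7% of the TPM that could include it in control and 36.0%, 34.5% and 40.7% in knockdown. For the 336-base exon the values were 80.6%, 79.1% and 80.2% in control and 39.9%, 35.4% and 44.3% in knockdown. Both exons thus lay far lower in every knockdown library, and transcripts that skip them held the larger part of the TPM there. The division of fragments among these transcripts was unsteady, since Sirpa-204 was 20.8, 0 and 28.6 TPM and Sirpa-214 was 6.91, 23 and 0 TPM in the 3 knockdown libraries. The remaining level counts all forms together, and protein was not measured.

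Of 13064 genes tested, 4619 passed an adjusted p under 0.05, which is 35.4%. Those higher in knockdown numbered 2345 (18.0%) and those lower 2274 (17.4%). The shares of gene list members called higher or lower below stand beside these 2 values. The lists and their members were chosen with earlier results of these data known, so a share above these values is not independent support. Most of the changes were small: the median absolute log2 fold change over all genes was 0.22, and 603 genes (4.62%) passed with at least a 2-fold change, 284 higher (2.17%) and 319 lower (2.44%). Falls outnumbered rises among the largest changes, with 126 lower against 77 higher at 4-fold and 57 against 30 at 8-fold. The share called rose with level, from 13.2% among the 2613 genes of lowest level to 53.3% among the 2613 of highest level, so a list of abundant genes tends to have more calls than a list of rare ones. When each library's average transcript length entered the fit as an offset, 2794 genes were called and the common biological coefficient of variation was 0.165 in place of 0.097. With this offset 26 of the counts of list members called higher or lower moved by more than 1.5 times. The numbers lower in the ERK output, melanocyte, dedifferentiated melanoma, collagen and ribosomal protein lists, and the numbers higher in the p53, cholesterol, fatty acid and MHC class I lists, were not among them.

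Genes with a mean of at least 5 CPM in 1 line and no overlap between the lines were ranked by fold change. The largest falls were in a Ras activator, a growth-control RNA, a cGMP-dependent kinase, adhesion molecules and matrix genes. Rasgrp1, a guanine nucleotide exchange factor that loads Ras with GTP when diacylglycerol binds it, was at 57.2, 61.7 and 62.6 CPM in control and 0.180, 0.0600 and 0 CPM in knockdown. Its 3 knockdown libraries held at most 4 counts each, a log2 fold change of -9.29 ± 0.27 (SE, adjusted p = 5e-13). No gene met the rule for a lost gene (at least 5 CPM in every control library and at most 3 counts in each knockdown library), and Rasgrp1 came nearest. Its neighbours on chromosome 2 did not share the fall: Fam98b had a log2 fold change of -0.16 (adjusted p = 0.117) and Thbs1 rose by 0.46 (adjusted p = 0.0022). The promoter of Rasgrp1 is shown because this gene went from well expressed to nearly silent. It is the 300 bases from 250 before to 50 after the start, from RefSeq (GRCm38.p6, chr2:117342828-117343127, minus strand), with each CG dinucleotide, the site of DNA methylation, in capitals.
Rasgrp1: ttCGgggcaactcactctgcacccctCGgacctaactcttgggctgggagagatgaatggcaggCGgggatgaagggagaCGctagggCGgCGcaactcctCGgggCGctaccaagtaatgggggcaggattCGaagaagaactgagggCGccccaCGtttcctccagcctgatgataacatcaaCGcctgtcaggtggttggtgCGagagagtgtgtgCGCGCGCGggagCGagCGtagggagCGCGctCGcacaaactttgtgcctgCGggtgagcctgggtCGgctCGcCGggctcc
It holds 26 CG, and 61.0% of the 9743 promoters of tested genes matched in the table hold fewer. No methylation was measured here.

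H19, the imprinted long non-coding RNA of chromosome 7, was at 28.6, 29.7 and 30.5 CPM in control and 0.225, 0 and 0.122 CPM in knockdown (log2 fold change -7.80 ± 0.35 SE, adjusted p = 9.09e-11). Prkg2, cGMP-dependent protein kinase II, went from 150.1, 153 and 151 CPM to 2.35, 0.774 and 1.46 CPM (log2 fold change -6.56 ± 0.16 SE). The absence of overlap between the lines was required by the ranking rule. Within the control line the libraries of these 3 genes lay close together. Neighbours of Prkg2 moved both ways, Antxr2 by 0.22 (adjusted p = 0.0173) and Hnrnpd by -0.37 (adjusted p = 0.00131). Over the 12 largest falls, 8 of 24 neighbouring tested genes were called and 3 were lower, against 35.4% called and 17.4% lower over all genes.

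Adhesion and cell surface genes made up much of the rest. Cdh6, a type II cadherin of neural crest and kidney, was at 8.39, 10.4 and 9.81 CPM in control and 0.496, 0.298 and 0.547 CPM in knockdown. Adam12, a membrane metalloprotease that sheds growth factors, was at 65.7, 70.6 and 72.0 CPM against 3.52, 4.17 and 2.67 CPM, and its relative Adam19 at 56.4, 55.2 and 51.4 CPM against 4.82, 5.77 and 6.26 CPM. These are falls of 20-fold and 9.72-fold. Ngfr, the low-affinity neurotrophin receptor used as a marker of neural crest-like melanoma, fell from 9.99 ± 0.85 (SD, n = 3) to 0.572 ± 0.23 CPM. Btn2a2, a butyrophilin, fell from 9.34 to 0.530 CPM. The fall of Kcnj13, an inward rectifier potassium channel, was from 6.59 to 0.606 CPM, and because it lies within Gigyf2 and the libraries carry no strand, reads of the 2 genes cannot be fully told apart. Tagln2, a calponin-like actin binder, went from 19.5, 20.3 and 19.5 CPM to 1.62, 1.55 and 2.49 CPM. In the overexpression line the mean was 0.318 CPM for Rasgrp1, 3.61 for H19, 0.572 for Prkg2, 0.394 for Cdh6 and 0.0663 for Ngfr. It was 1.10 CPM for Tagln2, 0.632 for Col2a1, 3.52 for Btn2a2, 2.79 for Kcnj13, 10.7 for Adam19 and 31.6 for Adam12. Col1a1 stood at 66.5 CPM there and 55.6 CPM in control. The other genes of the 12 largest falls were thus also lower than control in that line.

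**Figure D1:**
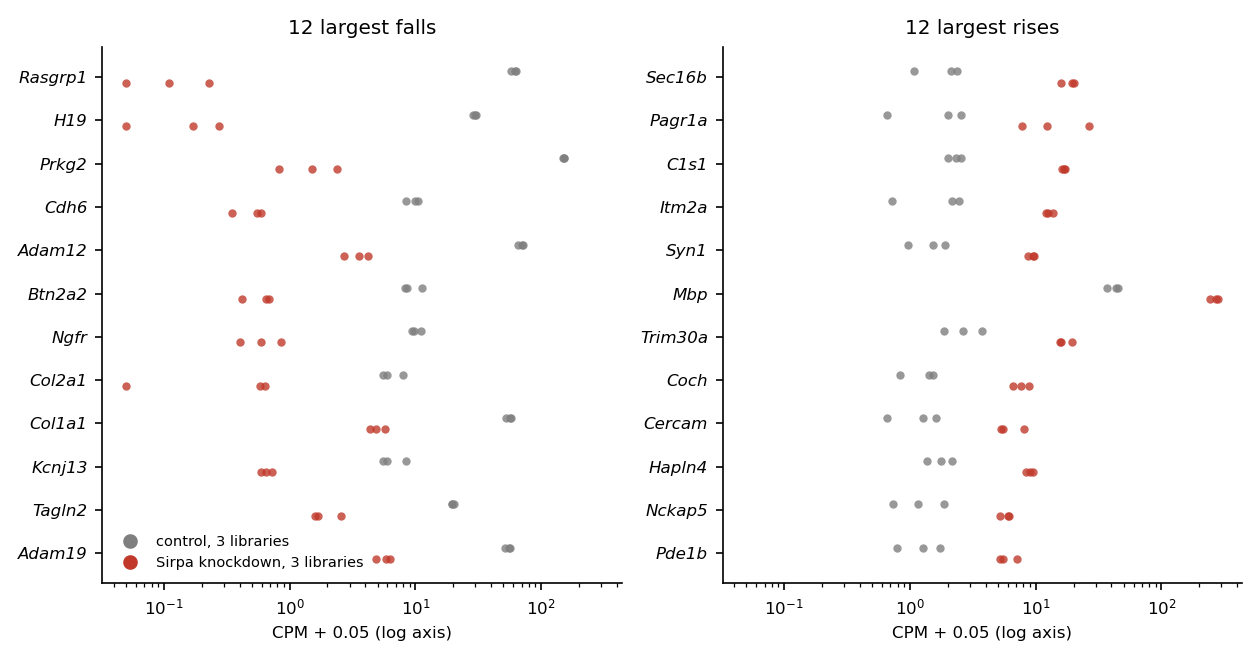
Level of the 12 genes with the largest falls (left) and the 12 with the largest rises (right) in each library, as CPM + 0.05 on a log axis, with 3 control libraries in grey and 3 knockdown libraries in red. No gene has overlapping lines, which the naming rule required, and Rasgrp1, H19 and Col2a1 each have 1 knockdown library at 0.

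The largest rises began from low levels. Sec16b, a protein of endoplasmic reticulum exit sites, was at 2.08, 2.30 and 1.03 CPM in control and 19.3, 15.8 and 20 CPM in knockdown (log2 fold change 3.36 ± 0.25 SE, adjusted p = 3.76e-08). Mbp, myelin basic protein, was already counted well in control, at 43.6, 45.2 and 36.7 CPM in control and 269.5, 283 and 244 CPM in knockdown (log2 fold change 2.67 ± 0.08 SE, adjusted p = 7.1e-13). Syn1, a synaptic vesicle phosphoprotein, rose from 1.41 to 9.21 CPM, and overlaps Araf, whose own log2 fold change was 0.03 (adjusted p = 0.763). Itm2a, a membrane protein of cartilage and T cell maturation, rose from 1.74 to 12.7 CPM, and its neighbour Lpar4, a lysophosphatidic acid receptor, from 0.388 to 3.99 CPM. C1s1, the complement protease C1s, rose from 2.24 to 16.7 CPM beside its neighbour C1ra, from 6.95 to 19.5 CPM. Of the 31-base words of these complement genes, 33.5% of those of C1s1 and 59.3% of those of C1ra occur in a near-identical copy, which leaves the assignment uncertain. The same holds for Pagr1a, at 93.2%, with 12.3, 7.68 and 26.5 CPM in knockdown. Trim30a, an interferon-inducible TRIM protein, rose from 2.7 to 17.0 CPM, and Coch, Cercam, Hapln4, Nckap5 and Pde1b rose from between 1.14 and 1.72 CPM to between 5.75 and 8.90 CPM. With the length offset Nckap5 was not called (log2 fold change 1.45, adjusted p = 0.0974). Over the 12 largest rises, 13 of 24 neighbouring genes were called and 7 were higher, against 35.4% and 18.0% of all genes.

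By difference in CPM, which favours abundant and long RNAs, the largest falls were in translation, pigment and housekeeping genes. Eef1a1, the elongation factor that brings aminoacyl-tRNA to the ribosome, fell from 11312 to 9370.4 CPM, and Eef2, the translocation factor, from 3932 to 3105 CPM. Serpinh1, the collagen chaperone HSP47, fell from 1295 to 914 CPM, and Vim, vimentin, from 2407 to 2014 CPM. The largest rises in level were mt-Co1, a subunit of cytochrome c oxidase made in mitochondria, from 5744 to 7416 CPM, Tyrp1 and Gpnmb, both melanosomal, and the endoplasmic reticulum chaperones Hsp90b1, from 1779.8 to 2247 CPM, and Hspa5, from 1601 to 1991 CPM. Eef1a1 shares 49.8% and mt-Co1 63.9% of its words with pseudogene copies.

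Changes among the partners of SIRPA were small. Of 13 tested members of the list, 4 rose (30.8%, against 18.0% of all genes) and 2 fell (15.4%, against 17.4%), with no change of 2-fold. Cd47, the ligand, was at 37.1, 35.3 and 33.3 CPM in control and 41.9, 35.4 and 38.7 CPM in knockdown (adjusted p = 0.203), and Ptpn11, which encodes SHP-2, had a log2 fold change of -0.11 (adjusted p = 0.0724). Ptpn6, which encodes SHP-1, rose from 13.1 to 20.1 CPM (log2 fold change 0.62, adjusted p = 0.000825). Among Src family kinases Fyn fell, from 89.2, 90.3 and 94.0 CPM to 65.2, 64.6 and 59.7 CPM, and Yes1 rose, from 42.0, 40.2 and 41.1 CPM to 59.1, 53.1 and 50.2 CPM. Thus 2 kinases of the same family moved in opposite directions, each without overlap between the lines.

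Genes that report on signalling through the kinase ERK mostly fell. ERK is the last kinase of the Ras, RAF and MEK cascade, and its immediate targets include its own feedback inhibitors. Of 21 tested genes of the ERK output list 14 fell (66.7%) and 2 rose, with a median log2 fold change of -0.80 against -0.01 over all genes. The feedback phosphatases were among them: Dusp4 was at 163, 174 and 164 CPM in control and 84.3, 85.5 and 86.1 CPM in knockdown, and Dusp6 at 145, 137 and 137 CPM and 87.6, 88.6 and 96.6 CPM. Spry2 and Spry4, Sprouty feedback inhibitors, fell by 0.91 and 1.30 on the log2 scale. All 3 ETS factors of the PEA3 group fell, Etv5 from 16.9 to 5.45 CPM, Etv1 from 14 to 6.62 CPM and Etv4 from 2.61 to 0.597 CPM. Etv5 shares 30.3% of its words with another gene. Myc fell from 48.3 to 29.0 CPM and Egr1 from 27.3 to 16.4 CPM. Those that rose were Ier3, from 20.1 to 29.4 CPM, and Phlda1, from 163 to 187 CPM.

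The Ras list itself was near the background, with 4 of 24 tested members higher (16.7%, against 18.0% of all genes) and 5 lower (20.8%, against 17.4%). Beside Rasgrp1 and Rasgrp2, the calls were under 2-fold. Among them were Sos1, a ubiquitous Ras exchange factor, with a log2 fold change of 0.46, and Spred2, an inhibitor of the cascade, with -0.47. Rasgrp3, another family member, rose from 158 to 179 CPM. Rasgrp2 rose from 1.55 to 4.22 CPM (log2 fold change 1.46, adjusted p = 0.00249). With the length offset Rasgrp2 was not called (log2 fold change 0.75, adjusted p = 0.164). Without control replicate 3 the Ras list counted 5 higher and 4 lower, and with the length offset 2 higher and 3 lower. Of 13 AP-1 family genes, which encode the dimeric factors downstream of ERK and JNK, 6 fell (46.2%) and 1 rose (7.69%). Fosl2 fell from 26.9 to 13.9 CPM and Junb from 39.2 to 23.7 CPM, while Batf rose from 0.549 to 1.51 CPM. Batf was not called when any single library other than control replicate 2 was left out. The number of AP-1 genes lower was 3 without control replicate 2, without knockdown replicate 1 and with the length offset. The list of diacylglycerol and protein kinase C signalling had 9 of 25 members higher (36.0%) and 2 lower (8.0%). It counts protein kinase C genes, Prkci among them, whether or not diacylglycerol activates their product. With the length offset 5 were higher. Prkcq rose from 129.5, 129 and 122 CPM to 236, 234 and 225 CPM, Prkci from 91.4 to 161 CPM and Prkcd from 18.9 to 32.4 CPM, while Prkce fell from 30.3 to 20.4 CPM. In the cGMP list 3 of 15 rose and 3 fell, shares close to the 18.0% and 17.4% of all genes. Beside Prkg2, Pde1a fell from 2.89 to 0.216 CPM, whereas Pde5a, a cGMP-specific phosphodiesterase, rose from 24.1, 22.6 and 24.2 CPM to 44.8, 43.0 and 45.6 CPM. With the length offset Pde5a was not called (adjusted p = 0.163).

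Most pigment cell genes were lower, though the summed level of 10 melanocyte markers above differed little. Of 23 tested genes of the melanocyte list 15 fell (65.2%) and 4 rose, with a median log2 fold change of -0.19. The regulators fell together: Mitf, the master regulator of the lineage, was at 389, 379.9 and 366 CPM in control and 296, 288 and 285 CPM in knockdown, Sox10 went from 492 to 416 CPM, Pax3 from 223 to 194 CPM and Tfap2a from 132 to 85.7 CPM. Far larger falls were those of Trpm1, a cation channel of melanocytes, from 233, 237 and 231 CPM to 47.1, 44.5 and 42.8 CPM (log2 fold change -2.38 ± 0.05 SE, adjusted p = 4.79e-15), and of Kit, the stem cell factor receptor, from 6.49 to 0.720 CPM. The melanin enzymes diverged, since Dct fell from 4458 to 3903 CPM and Tyrp1 rose from 6565 to 7584 CPM. Tyr, the rate-limiting enzyme, had a log2 fold change of 0.01 ± 0.04 (SE, adjusted p = 0.838), and Mlana of 0.03 ± 0.04 (adjusted p = 0.634).

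The promoter of Trpm1 is shown because its fall had the lowest adjusted p of all named genes and because it holds both short motifs that MITF can bind. Of the 2 promoters in the table the one with both was chosen, after the search. It is from RefSeq (GRCm38.p6, chr7:64185209-64185508, plus strand), with the motifs CACGTG and CATGTG, read on either strand, in capitals.
Trpm1: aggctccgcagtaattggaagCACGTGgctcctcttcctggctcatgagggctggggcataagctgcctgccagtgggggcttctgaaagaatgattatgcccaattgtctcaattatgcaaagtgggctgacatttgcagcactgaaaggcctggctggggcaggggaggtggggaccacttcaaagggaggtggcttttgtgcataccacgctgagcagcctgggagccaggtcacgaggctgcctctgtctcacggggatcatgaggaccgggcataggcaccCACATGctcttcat
CATGTG, the MITF box, was in 7 of 16 promoters of the melanocyte list (43.8%) and in 10.2% of the 9743 promoters of tested genes, and CACGTG in 25% and 12%. The 2 motifs are distinct 6-base words and do not overlap. Among promoters of genes at least 2-fold lower, 12.1% held the MITF box, and among those at least 2-fold higher, 11.6%. The AP-1 motif TGANTCA was in 7.01% and 10.7% of these promoters and in 5.81% of all, and the ETS motif CCGGAAGT, read on both strands, in 2.80% and 0.93% against 9.60%. Promoters of the 2-fold groups also held fewer CG, with a median of 20 among the lower and 15 among the higher genes against 22 over all. These are matches of letters and not measured binding.

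Markers of the dedifferentiated, invasive melanoma state fell too. Of 13 tested members 9 fell (69.2%) and 1 rose. Fn1, fibronectin, was at 495, 480.4 and 485 CPM in control and 113, 109 and 111 CPM in knockdown, and Axl, a receptor tyrosine kinase, at 39.2, 40.1 and 44.8 CPM and 10.1, 9.34 and 10.1 CPM. Ccn1 rose from 102 to 115 CPM, a call that was lost when any control library, the second knockdown library or the third overexpression library was left out. Melanocyte genes and invasive genes, often described as opposite programmes, therefore both had more members lower in this line. Receptor tyrosine kinases as a list had 4 of 19 higher (21.1%) and 5 lower (26.3%). The order turned to 4 and 3 without control replicate 2 or with the length offset, and to 5 and 4 without knockdown replicate 3. Erbb3, the neuregulin receptor of neural crest cells, fell from 85.7 to 48.4 CPM. The list also holds Igf2r, the mannose 6-phosphate receptor, which is not a kinase. Igf2r rose from 284 to 407 CPM and is 1 of the 4 counted as higher.

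**Figure D2:**
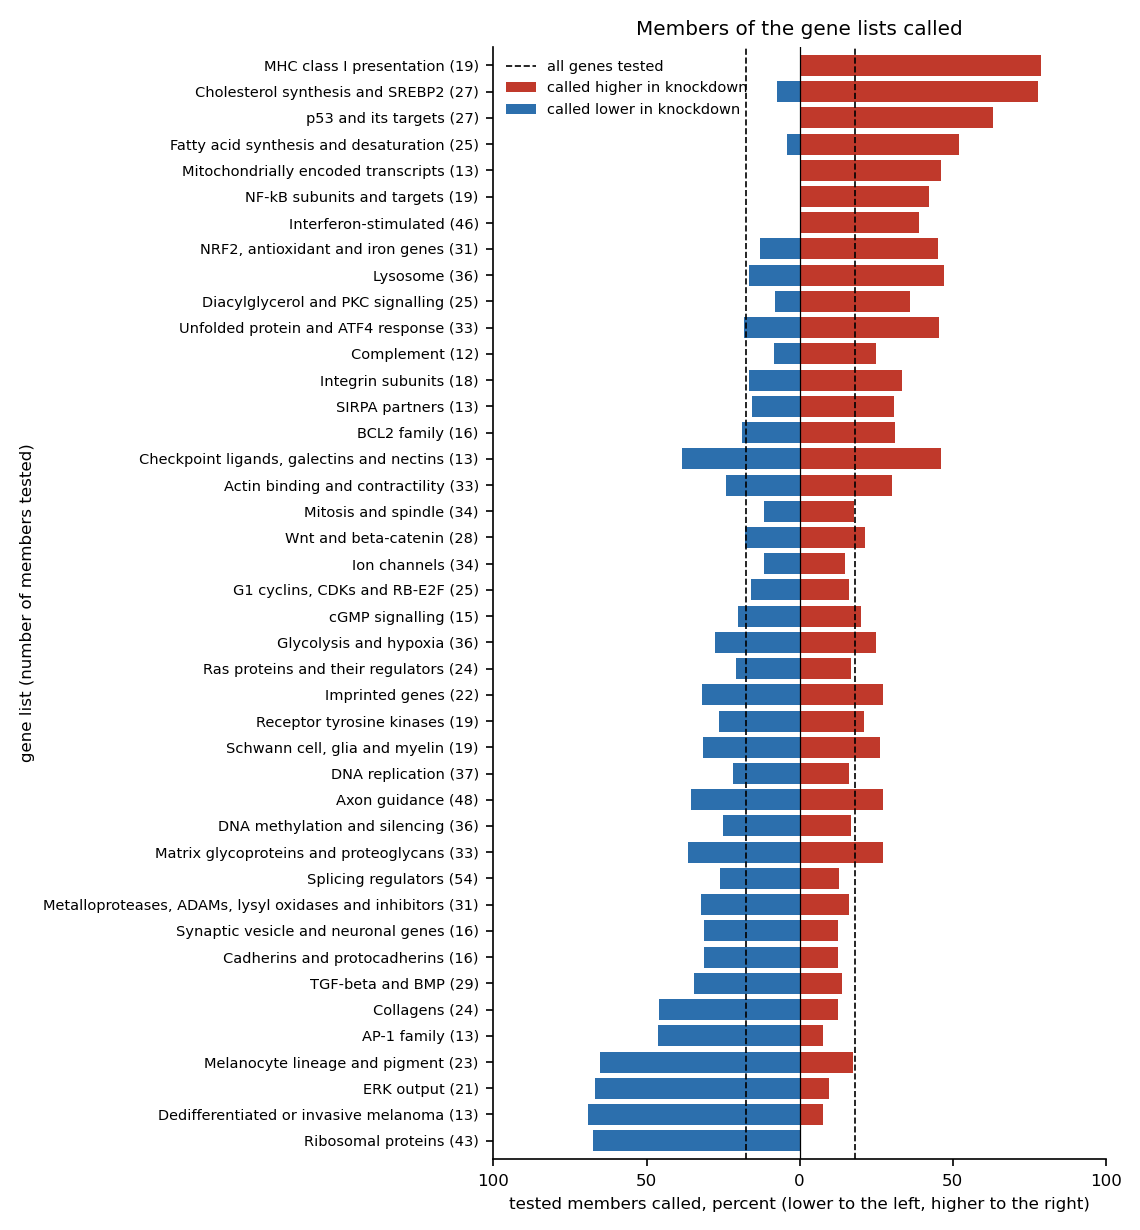
Percentage of the tested members of each of 42 gene lists that were called higher (red, to the right) or lower (blue, to the left) in knockdown, with the number tested in brackets. Dashed lines mark the 18.0% and 17.4% of all genes tested; MHC class I presentation reaches 78.9% higher and the dedifferentiated list 69.2% lower.

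Many collagens fell, and the chains of 1 protein did not move alike. Of 24 tested collagen genes 11 fell (45.8%), all by at least 2-fold, and 3 rose (12.5%), with a median log2 fold change of -0.93. Col1a1 was at 52.9, 57.7 and 56.2 CPM in control and 4.33, 4.82 and 5.71 CPM in knockdown. Col1a2, which encodes the other chain of type I collagen, was at 6.0, 6.06 and 3.75 CPM and 7.84, 9.76 and 8.27 CPM (log2 fold change 0.71, adjusted p = 0.0136), a rise that was not called without control replicate 3 (adjusted p = 0.0665), without knockdown replicate 2 (adjusted p = 0.0514) or with the length offset (adjusted p = 0.092). Col5a1, a fibrillar collagen, fell from 113, 127 and 118 CPM to 50.3, 50.4 and 50.1 CPM, and Col2a1, Col8a1, Col9a1 and Col12a1 fell by 4.04, 2.45, 2.16 and 1.44 on the log2 scale. Basement membrane collagen Col4a1 rose from 47.2 to 71.1 CPM. The count of collagens called higher was 1 without control replicate 3, without knockdown replicate 2 and with the length offset.

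Other matrix genes were split. Of 33 matrix glycoproteins and proteoglycans 12 fell (36.4%) and 9 rose (27.3%). Matn3, a cartilage matrilin, fell from 22.7 to 2.74 CPM, Ltbp4, a latent TGF-beta binding protein, from 41.4 to 15.7 CPM, and Sparc from 1075 to 783 CPM. Lamc1, the common laminin gamma chain, rose from 139, 147 and 136 CPM to 256, 272 and 259 CPM, and Postn, periostin, from 15 to 34.0 CPM. Of 31 metalloproteases, ADAMs, lysyl oxidases and inhibitors 10 fell (32.3%) and 5 rose (16.1%). Beside Adam12 and Adam19, Adam23 fell from 20.7 to 5.25 CPM and Mmp15 from 15 to 3.57 CPM, while Adam9 rose from 335 to 470.4 CPM and Adam15 from 43.7 to 69.9 CPM.

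Integrins, which tether cells to this matrix, changed in composition. Of 18 tested subunits 6 rose (33.3%) and 3 fell (16.7%). Itga3, a laminin receptor subunit, was at 17.0, 13.3 and 13.9 CPM in control and 3.52, 2.26 and 2.19 CPM in knockdown. The fibronectin receptor subunits Itga5 and Itga4 rose, from 40.7 to 67.2 CPM and from 81.0 to 125 CPM, and so did Itgb3, from 14.9 to 23.9 CPM. Itgav fell from 142 to 98.4 CPM and Itgb1, the common beta subunit, from 697 to 578 CPM. The fall of fibronectin thus stood beside rises of Itga5, Itga4 and Itgb3 and falls of Itgav and Itgb1. Of 16 cadherins and protocadherins 5 fell (31.2%) and 2 rose (12.5%), or 1 rose with the length offset. Cdh2, N-cadherin, fell from 290.4 to 231 CPM and Pcdh1 from 16.9 to 4.22 CPM. Among 33 genes of actin binding and contractility 10 rose (30.3%) and 8 fell (24.2%). Fscn1, fascin, which bundles actin in filopodia, rose from 16.2, 16.7 and 16.9 CPM to 68.4, 84.8 and 76.4 CPM (log2 fold change 2.20 ± 0.08 SE, adjusted p = 1.34e-11).

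Axon guidance genes, many of which act in melanoma and neural crest migration, changed in both directions. Of 48 tested members 17 fell (35.4%), 10 of them by at least 2-fold, and 13 rose (27.1%), 2 of them by at least 2-fold. With the length offset 9 were lower and 8 higher. The semaphorin Sema6a fell from 42.1, 42.0 and 43.6 CPM to 12.8, 12.3 and 12.9 CPM, while Sema3b rose from 65.3, 60.7 and 65.0 CPM to 127, 132 and 121 CPM. Among the semaphorin receptors of the list, Nrp2 rose from 406 to 651 CPM, Plxnd1 from 254 to 419 CPM, Plxna1 from 509 to 682 CPM and Plxnb2 from 541 to 741 CPM. Plxnb1, another, fell from 159.8 to 134 CPM. Of 19 Schwann cell, glia and myelin genes 5 rose (26.3%) and 6 fell (31.6%), or 4 and 3 with the length offset. L1cam, a neural adhesion molecule, rose from 32.5, 35.8 and 32.5 CPM to 88.5, 94.9 and 95.7 CPM and Pmp22, a myelin protein, from 39.3 to 66.1 CPM, whereas Cadm4 fell from 109, 115 and 117 CPM to 39.4, 39.5 and 33.9 CPM. Members of the myelin list thus moved in both directions. In the TGF-beta and BMP list 10 of 29 fell (34.5%) and 4 rose (13.8%). Its receptors Bmpr2, from 126 to 220.3 CPM, and Tgfbr2, from 39.3 to 62.3 CPM, were among those that rose, and the BMP target genes Id1, from 12.9 to 6.93 CPM, and Id3, from 75.3 to 44.1 CPM, among those that fell. Wnt genes had 6 of 28 higher (21.4%) and 5 lower (17.9%), or 3 lower with a filter of 1 CPM in 3 libraries. Synaptic and neuronal genes had 2 of 16 higher (12.5%) and 5 lower (31.2%). Of these 1 was higher without control replicate 2, without knockdown replicate 2 or with the length offset. Ion channels had 5 of 34 higher (14.7%) and 4 lower (11.8%), or 5 and 6 without knockdown replicate 2. The shares of the Wnt and ion channel lists were near or below those of all genes.

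Genes of lipid synthesis mostly rose. SREBP2 and SREBP1 are membrane-bound factors that switch on cholesterol and fatty acid enzymes when sterols run low. Of 27 tested genes of cholesterol synthesis 21 rose (77.8%) and 2 fell, with a median log2 fold change of 0.37 and none at 2-fold. Hmgcs1, which makes HMG-CoA, was at 190.2, 195 and 202 CPM in control and 356, 334 and 327 CPM in knockdown. Fdps rose from 368 to 522 CPM, Sqle from 172 to 223 CPM and Srebf2 itself from 342 to 402 CPM. The members that fell, Insig2, from 83.7 to 56.7 CPM, and Insig1, from 306 to 285 CPM, encode proteins that hold the SREBP complex in the endoplasmic reticulum. With any single library left out, 1 of the pair was called lower. Of 25 genes of fatty acid synthesis 13 rose (52%) and 1 fell, or 2 without control replicate 1 or knockdown replicate 3. Scd1, the delta-9 desaturase, rose from 316, 324 and 326 CPM to 525, 511 and 522 CPM and Fasn, fatty acid synthase, from 1177 to 1417 CPM. The promoter of Hmgcs1 is shown as that of the cholesterol gene with the largest rise, from RefSeq (GRCm38.p6, chr13:119690101-119690400, plus strand), with the sterol element core TCACCCCAC in capitals.
Hmgcs1: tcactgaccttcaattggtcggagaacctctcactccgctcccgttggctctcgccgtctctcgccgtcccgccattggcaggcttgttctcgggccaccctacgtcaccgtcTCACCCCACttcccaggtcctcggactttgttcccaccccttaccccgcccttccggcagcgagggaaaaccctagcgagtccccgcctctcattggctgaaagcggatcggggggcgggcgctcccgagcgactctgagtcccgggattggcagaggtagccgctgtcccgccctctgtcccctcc
This word, on either strand, was in 1 of 19 promoters of the cholesterol list (5.26%) and in 0.708% of all.

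p53 targets leaned upward. Of 27 tested members 17 rose (63.0%), with a median log2 fold change of 0.40. Without control replicate 1 a member was called lower. Trp53inp1, a stress-induced p53 cofactor, was at 141, 137 and 147 CPM in control and 376, 337 and 360.1 CPM in knockdown. Mdm2, the ubiquitin ligase of p53, rose from 134, 137 and 137 CPM to 245, 225 and 234 CPM, Cdkn1a, the cell cycle inhibitor p21, from 240.3 to 374 CPM, and Ccng1 from 369.7 to 582 CPM. The BCL2 family list of apoptosis genes had 5 of 16 higher (31.2%) and 3 lower (18.8%), or 1 lower with the length offset. Among those that rose, Bbc3, which encodes PUMA, went from 12.8 to 23.6 CPM and Bax from 146 to 179 CPM. Trp53 itself had a log2 fold change of 0.01 ± 0.05 (SE, adjusted p = 0.954). Proliferation lists were near the background of 18.0% higher and 17.4% lower. Mitosis genes had 6 of 34 higher (17.6%) and 4 lower (11.8%), DNA replication genes 6 of 37 higher (16.2%) and 8 lower (21.6%), and G1 cyclins and their partners 4 of 25 each way (16%). With the length offset 2 mitosis genes and 5 DNA replication genes were lower. Mki67, the proliferation antigen, rose from 428 to 559.7 CPM, Mcm2, a subunit of the replicative helicase, from 364 to 551 CPM, and Mcm5, another subunit, fell from 268 to 223 CPM.

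Most genes of MHC class I presentation rose, as did a smaller share of interferon-stimulated genes. Of 19 tested genes of MHC class I presentation 15 rose (78.9%) and none fell, with a median log2 fold change of 0.51. B2m, the light chain, was at 223, 207 and 209.5 CPM in control and 272, 258 and 285 CPM in knockdown. The peptide transporter genes rose more, Tap1 from 3.55, 5.33 and 5.87 CPM to 12.7, 15.8 and 10.3 CPM and Tap2 from 2.39, 1.15 and 1.77 CPM to 6.09, 7.26 and 6.56 CPM. Nlrc5, the transactivator of these genes, rose from 1.89 to 4.27 CPM. Of the heavy chains, H2-D1 rose from 74.9 to 104 CPM and H2-Q4 from 7.81 to 17.5 CPM, but 26.7% and 38.4% of their words occur in other class I genes. Among 46 interferon-stimulated genes 18 rose (39.1%), 4 by at least 2-fold, and none fell, while 28 were not called. DESeq2 called 1 lower, and with the length offset 11 were higher and 1 lower. Gbp2, a guanylate binding GTPase, rose from 6.10 to 17.3 CPM and Parp12 from 31.7 to 58.3 CPM. In the NF-kB list 8 of 19 rose (42.1%) and none fell, while 11 were not called and the median log2 fold change was 0.03. Among the rises were the subunits Nfkb1, from 81.4 to 125 CPM, and Nfkb2, from 41.9 to 53.3 CPM. With the length offset 5 of the NF-kB list were higher and 1 lower, and 1 was also lower without knockdown replicate 1 or 2 and by DESeq2 or limma-voom. Checkpoint ligands and related genes were mixed, with 6 of 13 higher (46.2%) and 5 lower (38.5%), or 3 lower with the length offset. Cd274, which encodes PD-L1, rose from 4.07 to 7.33 CPM, and Cd276, which encodes B7-H3, fell from 19.8 to 8.10 CPM. The summed level of macrophage markers, given above, was also higher in the knockdown libraries, and its part in these rises was not tested.

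Stress and organelle lists leaned upward and ribosomal proteins downward. Of 36 lysosome genes 17 rose (47.2%) and 6 fell, with Ctsb, cathepsin B, at 254, 265 and 259 CPM in control and 442, 468 and 453 CPM in knockdown and Gabarapl1, an autophagosome protein, at 89.0 and 145 CPM. Of 31 NRF2, antioxidant and iron genes 14 rose (45.2%) and 4 fell (12.9%). Slc7a11, the cystine importer, rose from 95.9, 107 and 101 CPM to 199, 193 and 209 CPM and Gclm, of glutathione synthesis, from 79.0 to 144 CPM, while Gsta4, a glutathione transferase, fell from 31.7, 28.9 and 32.3 CPM to 6.67, 5.36 and 5.17 CPM. In the list of the ATF4 and unfolded protein responses, 15 of 33 were called higher (45.5%) and 6 lower (18.2%). Herpud1 rose from 108 to 181 CPM and Pdia4 from 505 to 709.7 CPM, and Shmt2, a mitochondrial folate enzyme, fell from 367 to 224 CPM. Glycolysis and hypoxia genes were even, 9 of 36 higher (25.0%) and 10 lower (27.8%), or 5 higher with the length offset. Of 13 mitochondrially encoded transcripts 6 rose (46.2%) and none fell, while 1 was called lower without knockdown replicate 1. Of 43 ribosomal protein genes 29 fell (67.4%) and none rose, with a median log2 fold change of -0.24. Rpl13 fell from 987 to 706 CPM. Many processed pseudogenes copy ribosomal protein genes, so reads can be split between them.

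Imprinted genes had 6 of 22 higher (27.3%) and 7 lower (31.8%). The order was reversed by 1 gene when control replicate 1 (7 and 6) or control replicate 3 (6 and 5) was left out. Peg10, a retrotransposon-derived gene expressed from the paternal copy, fell from 326, 315 and 320.0 CPM to 107, 97.9 and 119.7 CPM, and its neighbour and fellow imprinted gene Sgce rose from 64.9 to 82.3 CPM. Genes of DNA methylation and silencing had 6 of 36 higher (16.7%) and 9 lower (25%), an order that turned to 8 and 7 without knockdown replicate 1 and to 4 and 3 with the length offset. Kdm5b, a histone H3 lysine 4 demethylase linked to slow-cycling melanoma cells, fell from 45.2 to 26 CPM, and its relative Kdm5a rose from 123 to 167 CPM. With the length offset Kdm5b was not called (adjusted p = 0.0595). Of 54 splicing regulators 14 fell and 7 rose, with 9 lower without control replicate 1 and 7 lower without control replicate 3. Mbnl1, muscleblind, was the largest change, at 152, 159.7 and 163 CPM in control and 322, 292 and 317 CPM in knockdown, and Hnrnph1 fell from 501 to 375 CPM.

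Small shifts ran along whole chromosomes. The median log2 fold change over the 666 tested genes of chromosome 3 was 0.21, with 256 called higher (38.4%) and 59 lower (8.86%), against 18.0% and 17.4% of all genes. Chromosome 6 had a median of 0.15 over 674 genes, with 235 higher and 54 lower, and chromosome 13 a median of 0.13 over 481 genes, with 126 higher and 37 lower. Chromosome 8 was shifted down, with a median of -0.13 over 700 genes, 52 higher and 203 lower. Smaller medians went with uneven counts elsewhere: chromosome 15 had a median of 0.06, with 135 higher (26.6%) and 63 lower (12.4%), and chromosome 7 a median of -0.07, with 98 higher (10.2%) and 201 lower (20.8%). All 3 knockdown libraries showed each of the 4 larger shifts: relative to the control mean, the median of chromosome 3 was 0.21, 0.19 and 0.22, that of chromosome 6 was 0.16, 0.14 and 0.15, that of chromosome 13 was 0.12, 0.07 and 0.13 and that of chromosome 8 was -0.12, -0.09 and -0.12. The control libraries lay within 0.02 of 0 on these chromosomes, as values centred on their own mean must lie close to it. Among genes with a mean of at least 5 CPM, a limit added after seeing the data, the 4 medians were 0.21, 0.18, 0.14 and -0.13. In the overexpression line, which was compared with the same 3 control libraries, the medians were 0.17 for chromosome 3, 0.15 for chromosome 6, 0.04 for chromosome 13 and -0.01 for chromosome 8.

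**Figure D3:**
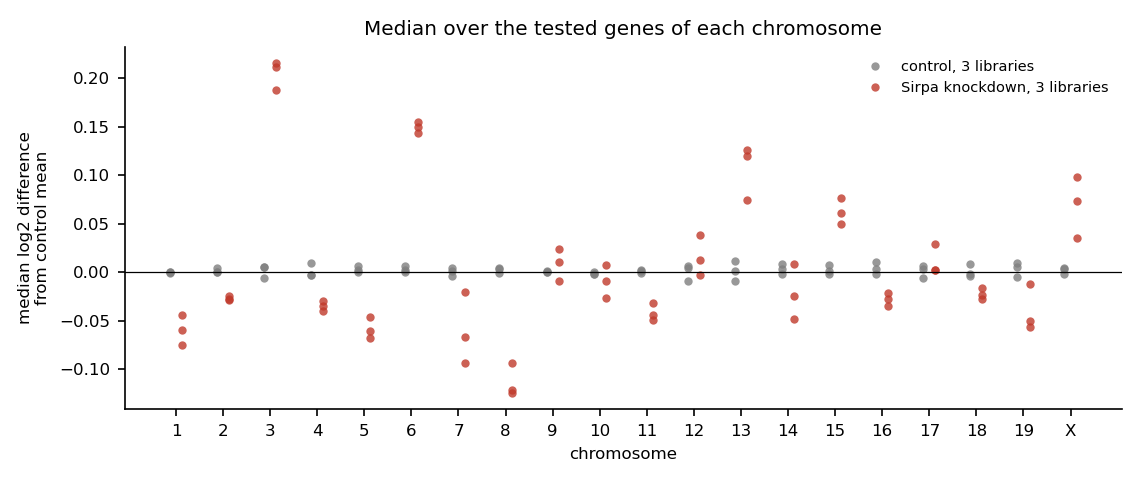
Median over the tested genes of each chromosome of the log2 difference from the mean of the control libraries (log2 of CPM + 0.5), for 3 control libraries in grey, which are centred on 0 by construction, and 3 knockdown libraries in red. The knockdown libraries sit together above 0 on chromosomes 3, 6 and 13 and below 0 on chromosome 8.

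The shifts were spread along these chromosomes. In blocks of about 50 neighbouring genes of at least 5 CPM, all 10 blocks of chromosome 6 had a median above 0, from 0.10 to 0.24, and all 11 blocks of chromosome 8 a median below 0, from -0.21 to -0.04. All 8 blocks of chromosome 15 were above 0 as well, from 0.01 to 0.23. On chromosome 3 blocks ranged from 0.00 to 0.34, with the block from Plrg1 to Mtx1 at 0.00 between blocks at 0.34 and 0.10. On chromosome 13 the first block, up to Ripor2, was at -0.06 and the other 6 were at 0.11 to 0.19. Chromosome 10 as a whole had a median of -0.01, but it changed sign along its length: the block from R3hdm4 to Pias4 was at -0.13 with 3 genes higher and 22 lower, and the block from Osbpl8 to Arhgef25 at 0.22 with 26 higher and 2 lower. Genes named above sit on these chromosomes, among them Fdps, Mbnl1, Pde5a, Prkci and Slc7a11 on chromosome 3, C1s1 and C1ra on 6, Hmgcs1 on 13, and Mdm2 on 10. Subtracting each gene's chromosome median, an alternative added after seeing the data, gave list medians of 0.32 for cholesterol synthesis, 0.36 for p53 targets, 0.46 for MHC class I presentation, -0.80 for ERK output and -0.23 for ribosomal proteins, each within 0.05 of the value above. The median of the unfolded protein and ATF4 list went from 0.11 to 0.05, that of the NRF2 list from 0.07 to 0.13, that of integrin subunits from 0.54 to 0.48 and that of checkpoint ligands from 0.39 to 0.46. The mitochondrially encoded list went from 0.18 to 0, since the median subtracted is that of mitochondrial genes themselves. DNA copy number was not measured here, and its part in these shifts was not tested.

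**Figure D4:**
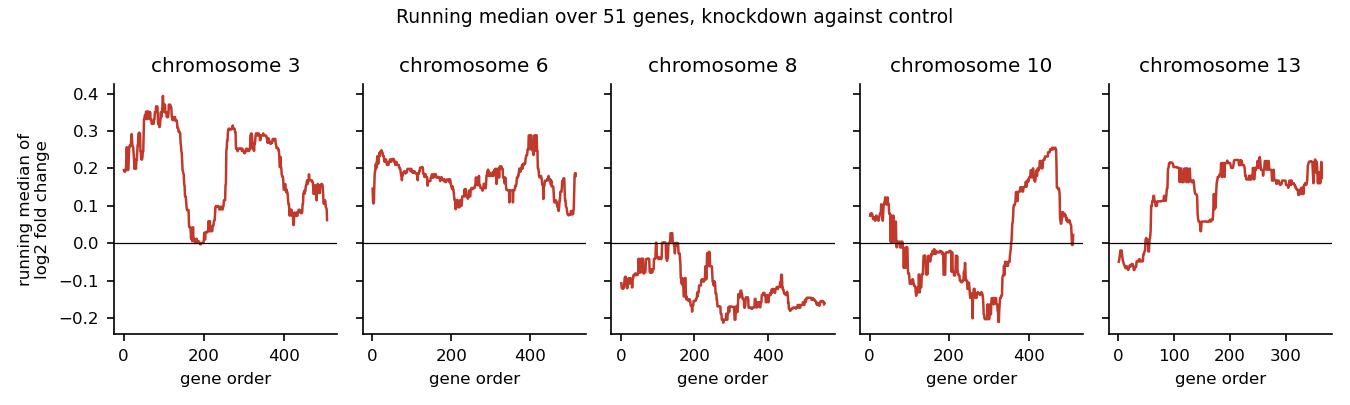
Running median over 51 neighbouring genes of the log2 fold change of knockdown against control, along the order of tested genes with a mean of at least 5 CPM on chromosomes 3, 6, 8, 10 and 13. The line stays above 0 along chromosome 6, near or below 0 along chromosome 8, and along chromosome 10 it starts above 0, runs below 0 and ends above 0.

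Transcript shares within genes were tested apart from gene levels. Each transcript's estimated count was divided by that of its gene, which gave 14323 transcripts of 5456 genes with enough counts. A difference of at least 10 percentage points was seen for 2385 transcripts, but the SD within a line was 5.78 points at the median transcript and 20.7 at the upper 5% of transcripts. After adjustment 9 transcripts (0.0628%) of 7 genes were called by limma and 12 transcripts (0.0838%) of 12 genes by edgeR's test for differential transcript usage, with 5 called by both. Leaving out 1 library gave 2 to 14 limma calls, of which 2 to 9 were among these 9. Of the 9, 8 were estimated at 0 in every library of 1 line. The limma calls beside Sirpa-201 and Sirpa-203 were D3Ertd254e-201 and D3Ertd254e-202, Ankrd16-209, Agbl5-209, Eif2b4-212, Ak6-205 and Gpank1-201. D3Ertd254e-201 took 68.4%, 44.4% and 80.6% of its gene in knockdown and 0 in control. Ak6-205 took 36.5%, 54.6% and 40.6% in knockdown and 0 in control, although 57.3% of the words of Ak6 occur in another gene, Taf9 above all.

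Transcripts with counts in both lines are described next, chosen after their values were seen from those called by edgeR alone. Epb41l2 encodes a protein 4.1 family member that links membrane proteins to spectrin and actin. Epb41l2-207 was 54.2%, 54.1% and 49.6% of the gene in control and 14.5%, 23.7% and 24.9% in knockdown (edgeR adjusted p = 0.0105, limma adjusted p = 0.102), while Epb41l2-201, the longer form, was at 46.1% ± 2.56 and 77.3% ± 5.31 (SD, n = 3) without being called by either. The gene total was 145, 134 and 144 CPM in control and 151, 145 and 149 CPM in knockdown (adjusted p = 0.277). Epb41l2-201 has a pair of coding exons that Epb41l2-207 lacks, of 63 and 147 bases, both multiples of 3. They are shown from the GENCODE M21 transcript, in lower case throughout, with positions on GRCm38 plus strand, chr10:25493567-25493629 and chr10:25495445-25495591.
Epb41l2 exon of 63 bases: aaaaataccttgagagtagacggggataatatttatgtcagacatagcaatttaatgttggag
Epb41l2 exon of 147 bases: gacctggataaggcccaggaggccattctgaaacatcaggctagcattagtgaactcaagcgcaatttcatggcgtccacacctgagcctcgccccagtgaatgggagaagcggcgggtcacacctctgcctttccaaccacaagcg
Of the TPM of transcripts that span them, 43.0%, 43.8% and 47.8% included both exons in control and 84.4%, 74.9% and 73.6% in knockdown. The overexpression line had 67.3%, 71.8% and 67.1%, also above the control libraries. The lines of control and knockdown did not overlap, and each exon keeps the reading frame whether it is in or out.

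**Figure D5:**
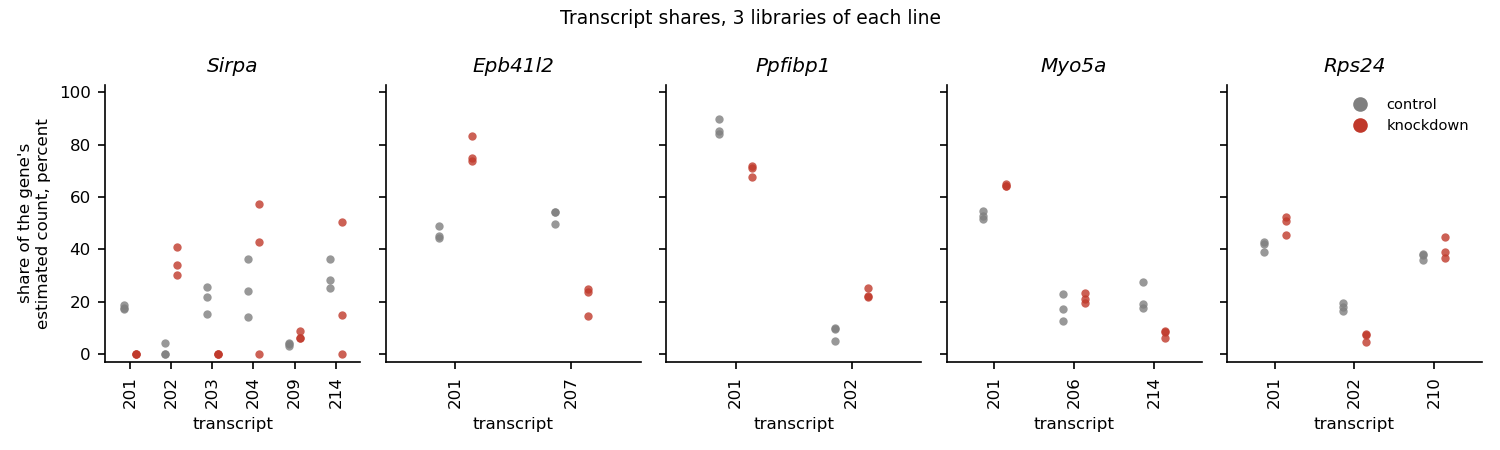
Share of each gene's estimated count held by each annotated transcript with a mean share of at least 5% in 1 line, for Sirpa, Epb41l2, Ppfibp1, Myo5a and Rps24, with 3 control libraries in grey and 3 knockdown libraries in red. Sirpa-201 and Sirpa-203 drop to 0 in knockdown, and Epb41l2-207 goes from 49.6% or more to 24.9% or less.

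Ppfibp1 encodes liprin beta 1, a scaffold of cell adhesion sites. Ppfibp1-202 was 9.70%, 4.88% and 10.2% of the gene in control and 25.5%, 22% and 22.4% in knockdown (edgeR adjusted p = 0.00601, limma adjusted p = 0.244). It carries a coding microexon of 33 bases (GRCm38, chr6:146999662-146999694, plus strand).
Ppfibp1 exon of 33 bases: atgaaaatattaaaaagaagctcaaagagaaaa
Inclusion of this exon was 10.4%, 5.23% and 10.9% in control and 27.6%, 24.0% and 24.1% in knockdown. The gene total also rose, from 229.9 to 297 CPM (adjusted p = 2.13e-05).

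Myo5a encodes myosin Va, the motor that carries melanosomes along actin, and its tail has alternative exons that differ between melanocytes and brain. The gene rose from 442, 443 and 444 CPM in control to 712, 684 and 708 CPM in knockdown (log2 fold change 0.66 ± 0.04 SE, adjusted p = 7.45e-10). Myo5a-214 fell as a share, from 17.6%, 19.4% and 27.4% to 8.82%, 6.18% and 8.47% (edgeR adjusted p = 0.00866, limma adjusted p = 0.305). An exon of 75 bases (GRCm38, chr9:75196126-75196200, plus strand) and one of 81 bases (chr9:75192384-75192464) are shown because the tail exons decide which cargo adaptors the motor can bind.
Myo5a exon of 75 bases: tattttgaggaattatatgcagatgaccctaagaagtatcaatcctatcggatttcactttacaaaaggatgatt
Myo5a exon of 81 bases: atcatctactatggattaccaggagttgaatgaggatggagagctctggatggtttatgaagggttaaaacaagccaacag
Inclusion of the 75-base exon was 62.8%, 61.8% and 55.6% in control and 68.2%, 69.5% and 70.1% in knockdown, and that of the 81-base exon 66.8%, 66.3% and 70.7% in control and 62.0%, 53.7% and 57.5% in knockdown. The lines did not overlap for either exon, though the differences of 9.22 and -10.2 points were of the size of the spread of many transcripts and were not tested as exons. Rps24-202, a minor form of a small ribosomal subunit protein, fell from 18.1%, 16.4% and 19.7% to 7.25%, 4.77% and 7.83% (edgeR adjusted p = 0.000322, limma adjusted p = 0.244). These 4 genes showed the direction in all 3 knockdown libraries, yet each was called by 1 method and not by the other.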

How the data were processed

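RNA-seq was done on B16F10 lines in 9 libraries, 3 each of control, Sirpa knockdown and Sirpa overexpression. The deposited tables hold estimated counts and TPM per transcript made by the authors with Salmon 1.4.0, and per the submitters' processing notes the build was mm39, with MultiQC 1.11 and DESeq2 1.34.0 also named. The library kit does not mark strand, per the labels' protocols. Of 140789 transcripts, 97.42% matched GENCODE M21 (GRCm38) by Ensembl identifier, which gave gene names and all coordinates, and 0.554% to 0.654% of counts did not match. Estimated counts were summed per gene (51717 genes) and not corrected for length in the main fit. Genes kept by filterByExpr were scaled by TMM and tested with edgeR 4.0.16 (quasi-likelihood, all 9 libraries, line as the only term, R 4.3.3) with Benjamini-Hochberg adjustment and a threshold of 0.05. CPM uses TMM library sizes. Shares were tested as log2 odds, with 0.01 added, by limma 3.58.1 in genes with a mean of at least 100 counts, for transcripts of at least 5% of their gene, and called at 10 points or more. Gene lists, and the tests and members, were chosen with earlier results of these data known. Genes named were the 12 largest changes each way without overlap, the 10 largest CPM differences each way, and up to 4 members of a list with the lowest adjusted p or every called member of a list with 5 or fewer. Further list members, regulators with no call, and the exons were chosen after their values were seen. Some genes that the rule names are not reported here.

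Alternatives were DESeq2 1.42.0 and limma-voom, another scaling, other filters, only 6 libraries, a replicate block, a length offset and leaving out each library. Libraries of a line differed by more than sampling noise (chi-square per degree of freedom 4.81 to 10.79), so none was counted as a duplicate. edgeR was run on simulated data with 12677 genes. It recovered 77.6% of 67 genes changed 1.5-fold, 91% of 67 changed 2-fold and 98.5% of 66 changed 4-fold, with 9 false calls. The changed genes were drawn from those above a limit on counts, so recovery at low levels was not measured. On 14093 simulated transcripts limma recovered 38% of 100 genes given a 20-point share change and 75% of 100 given 40 points. It also called 7 genes that were not changed. Shared sequence was counted as 31-base words of a gene's transcripts that occur in another gene. Promoters are the RefSeq windows of 300 bases, from 250 before to 50 after the start.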

Additional observations from a re-analysis of the deposited data

How the results depend on the processing

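None of 191 named genes reversed under any alternative run, and 1 of them, Gng3, was not tested with the filter of 1 CPM in 3 libraries. The average transcript length offset had the largest effect: 2794 genes were called (1433 higher and 1361 lower), 2663 of them among the 4619 called without it (57.7% of the 4619), the coefficient of variation was 0.165 in place of 0.097, and 19 of 191 named genes lost their call. No other setting took the call from more than 3. Leaving out 1 library gave 3885 to 4555 genes called (2025 to 2353 higher, 1860 to 2202 lower), 554 to 612 with at least a 2-fold change, and a log2 fold change of Sirpa from -1.374 to -1.333. The length offset moved that of Sirpa further, to -1.132 (SE 0.09). The replicate block gave 4423 genes, 4349 of them among the 4619 (94.2% of the 4619), and 1 transcript with a changed share in place of 9. The numbers do not pair the libraries, since deviations of same-numbered control and knockdown libraries had correlations of -0.084, -0.009 and -0.093, and no control library correlated best with its own number. Transcripts with a changed share numbered 4 among genes with a mean of at least 500 counts and 2 to 14 with 1 library left out, lowest without knockdown replicate 3 and highest without overexpression replicate 3. Few were the same transcripts in some of these: without knockdown replicate 1, 2 of 7 were among the 9, and without control replicate 2, 4 of 11. The cause of these differences was not tested. The direction with more calls changed for 6 of 42 lists, in 10 cases over 17 settings. The 6 lists had numbers higher and lower that differed by at most 3. The medians of 4 chromosomes kept their sign in all settings, at 0.178 to 0.233 for chromosome 3, 0.101 to 0.172 for 6, 0.056 to 0.139 for 13 and -0.137 to -0.107 for 8.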
